A study of Mus musculus with 16 samples.

Results

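The Hox genes of the 4 Hox clusters were followed through differentiation and through msx2 induction in pmi28 cells, a mouse myoblast line whose cells fuse into multinucleated myotubes. Members were all genes of the counts table named Hox with a cluster letter from a to d and a paralog number, which gave 35 of 19799 genes. They comprised 8 Hoxa genes on chromosome 6, 10 Hoxb genes on chromosome 11, 9 Hoxc genes on chromosome 15 and 8 Hoxd genes on chromosome 2. Hoxa4, Hoxa5, Hoxa6 and Hoxd4 were not analysed here.

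RNA-seq libraries came from 6 groups. The induced groups were purified myotubes kept for 24 h in growth medium (20% fetal bovine serum) with 2 µg/ml of doxycycline, in a line with inducible msx2 and GFP transgenes (msx2 line, 3 libraries) and in a line with an inducible GFP transgene alone (GFP line, 3 libraries). Uninduced isolated myotubes (3 libraries per line) and uninduced myoblasts (2 libraries per line) were the other groups. Growth medium with 20% serum is listed for all 6 groups, myoblasts included. All 12 myotube libraries shared differentiation in 10% horse serum for 3 days, retrieval of myotubes on a nylon mesh and culture with the cytostatic drug AraC, none of which the 4 myoblast libraries had, and the medium of the uninduced myotubes during induction is not stated in the labels. Each construct was read in cells of 1 transgenic line. The labels name no separate cultures behind the replicates, and p-values therefore cover only the spread between these libraries, which may be technical. The 2 GFP-line myoblast libraries differed by 1.95 times the variance of counting noise (mean over genes). All other pairs of libraries within a group differed by 10.5 to 31.3 times that variance.

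Hox genes encode homeodomain transcription factors that give cells along the head-to-tail axis and along the limbs their positional identity. Within a cluster the genes lie in the order of their paralog numbers, and low-numbered genes act towards the head and high-numbered genes towards the tail and the tip of the limb. Cells keep much of this code after development: Polycomb proteins hold silent Hox genes off, and trithorax proteins keep active ones on. Msx2 is itself a homeodomain protein, outside the Hox clusters, and is known mainly as a repressor in undifferentiated progenitor cells.

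Depth was 19772048 to 33070931 counts per library, of which 3245 to 6132 fell on Hox genes. Levels are CPM, counts relative to the TMM-adjusted library size, and the spread given with a mean is the SD over libraries. Msx2 averaged 1440 ± 87.1 CPM in induced msx2-line myotubes (n = 3), 1.04 ± 0.231 in induced GFP-line myotubes (n = 3), 13.7 ± 1.94 in uninduced msx2-line myotubes (n = 3), 1.11 ± 0.0723 in uninduced GFP-line myotubes (n = 3), 16.6 ± 0.277 in msx2-line myoblasts (n = 2) and 1.43 ± 0.219 in GFP-line myoblasts (n = 2). The transgene was therefore read in the libraries labelled for it, and at a lower level in the uninduced msx2 line. Markers of myotubes (9 genes) summed to 10535 to 13349 CPM in induced msx2-line myotubes, 21824 to 25039 in induced GFP-line myotubes, 20314 to 23057 in uninduced msx2-line myotubes, 22714 to 25431 in uninduced GFP-line myotubes, 925 to 936 in msx2-line myoblasts and 336 to 354 in GFP-line myoblasts. Fibroblast markers (5 genes, of which Tcf21 stayed under 0.1 CPM in every group) summed to 257 to 832 CPM in induced and 240 to 716 CPM in uninduced msx2-line myotubes, against 331 to 391 and 322 to 369 CPM in induced and uninduced GFP-line myotubes, and to 1108 to 1145 CPM in msx2-line and 737 to 761 CPM in GFP-line myoblasts. The highest of these sums among myotubes belonged to the msx2-line myotube libraries numbered 2, so the main results on msx2 induction are also given without that pair.

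Hoxc and Hoxa genes made up nearly all RNA of the 35 members in every group. The shares leave out Hoxa4, Hoxa5, Hoxa6 and Hoxd4, which were not among the members. Per kilobase of exon, Hoxc genes carried a mean of 68.0 to 72.6% of the summed level of the members over the 6 groups, Hoxa genes 21.9 to 26.3% and Hoxb genes 2.44 to 4.81%. The Hoxd share was 1.76 ± 0.272% in induced msx2-line myotubes, 4.00 ± 1.26% in induced GFP-line myotubes, 3.25 ± 0.869% in uninduced msx2-line myotubes, 4.20 ± 1.06% in uninduced GFP-line myotubes, 0.0256 ± 0.02% in msx2-line myoblasts and 0.0347 ± 0.0285% in GFP-line myoblasts. Of the 35 members, 16 averaged at least 1 CPM in every group, among them Hoxa9, Hoxa10, Hoxa11, Hoxb3, Hoxb4, Hoxc4, Hoxc6, Hoxc9, Hoxc10, Hoxc11 and Hoxc13. Another 4, Hoxa2, Hoxa13, Hoxd3 and Hoxd8, averaged at least 1 CPM in some groups only, and 15 stayed under 1 CPM in all 6. The single highest Hox gene per kilobase was Hoxc10, a patterning gene of the lumbar and hindlimb region, in induced msx2-line myotubes, at 13.9 ± 1.05 CPM per kilobase, and in both lines' myoblasts, at 38.1 ± 3.26 CPM per kilobase in msx2-line and 30.2 ± 0.979 in GFP-line myoblasts. In the other myotube groups Hoxc6, a gene of the thoracic region, stood beside it. Uninduced msx2-line myotubes had 12.8 ± 2.41 CPM per kilobase of Hoxc6 and 14.2 ± 0.464 of Hoxc10, induced GFP-line myotubes had 14.0 ± 1.38 CPM per kilobase of Hoxc6 and 14.0 ± 0.907 of Hoxc10, and uninduced GFP-line myotubes 14.2 ± 2.75 and 13.1 ± 0.596, differences within the SD. Hoxa10 led the Hoxa cluster in every group (5.31 to 12.2 CPM per kilobase), and Hoxd8 led the Hoxd cluster in the myotube groups (0.578 to 1.93 CPM per kilobase). Hoxb3 led the Hoxb cluster in the myotube groups (1.26 to 1.61 CPM per kilobase), while in myoblasts it and Hoxb4 stood within 1 SD of each other.

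**Figure D1:**
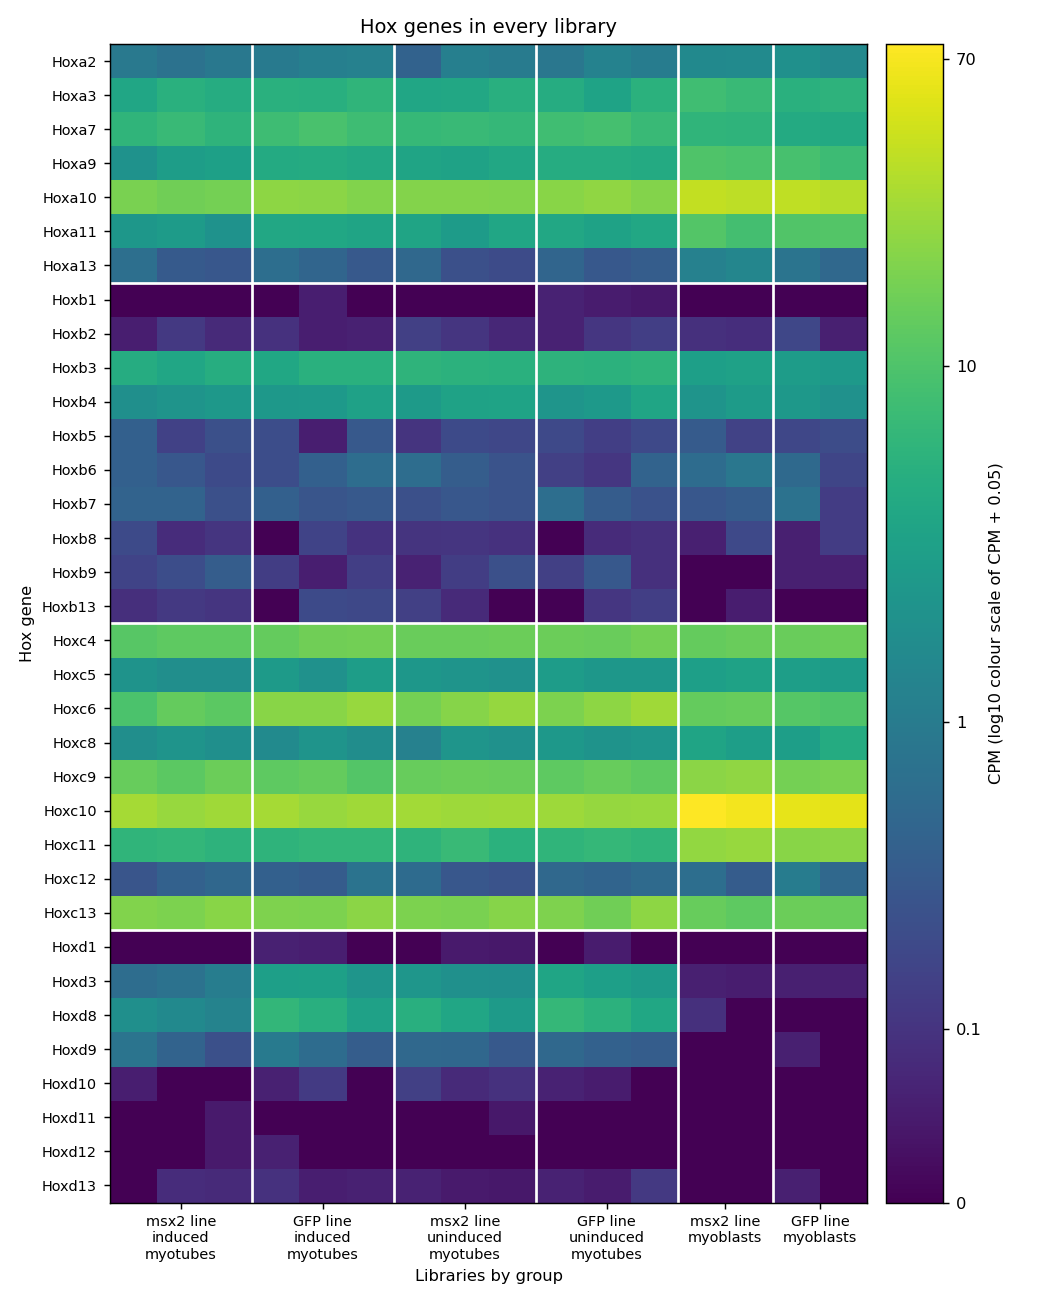
Level of 34 Hox genes (rows, by cluster and paralog number) in each of the 16 libraries (columns, by group), as CPM on a log10 colour scale. Hoxc10 and Hoxa10 are brightest in myoblasts, Hoxd3, Hoxd8 and Hoxd9 are dark in myoblasts and lit in myotubes, and most of the Hoxb cluster is dark throughout.

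Of the 35 members, 24 passed the low-count filter and were tested. The other 11 were Hoxb1, Hoxb2, Hoxb5, Hoxb8, Hoxb9, Hoxb13, Hoxd1, Hoxd10, Hoxd11, Hoxd12 and Hoxd13. None of them had more than 11 counts in any library, and their highest level was 0.423 CPM, for Hoxb5 in an induced msx2-line library. Among the tested genes Hoxa13, Hoxb6, Hoxb7 and Hoxc12 were also scarce, at means of 0.244 to 1.30 CPM, and their tests had little depth behind them. Hoxd3, Hoxd8 and Hoxd9 passed the filter through their myotube libraries alone, so the adjusted p of each for myotubes over myoblasts is given from the fit with no low-count filter.

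Hoxd genes were detected in myotubes and nearly absent from myoblasts, and this held for 3 genes in the middle of the cluster. Hoxd9, Hoxd8 and Hoxd3 lie next to each other in the table's Hoxd genes, with Hoxd10 to Hoxd13 on one side and Hoxd1 on the other, and the members on both sides stayed at 0 to 4 counts per library in all groups. The promoters of these 3 genes are shown because the genes moved together. They are from RefSeq, build GRCm38.p6, all on the plus strand, 250 bases before to 50 bases after the start: Hoxd9 at chr2:74697513-74697812, Hoxd8 at chr2:74704365-74704664 and Hoxd3 at chr2:74711743-74712042. Capitals mark the E-box CANNTG, the core motif bound by myogenic factors of the MyoD family, and the Msx core TAATTG, searched on both strands.
Hoxd9: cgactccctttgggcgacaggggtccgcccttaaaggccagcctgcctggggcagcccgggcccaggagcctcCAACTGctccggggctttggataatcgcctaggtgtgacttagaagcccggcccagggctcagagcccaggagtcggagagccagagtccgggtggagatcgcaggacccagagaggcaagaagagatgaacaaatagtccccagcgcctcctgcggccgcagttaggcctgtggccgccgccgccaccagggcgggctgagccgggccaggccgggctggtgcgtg
Hoxd8: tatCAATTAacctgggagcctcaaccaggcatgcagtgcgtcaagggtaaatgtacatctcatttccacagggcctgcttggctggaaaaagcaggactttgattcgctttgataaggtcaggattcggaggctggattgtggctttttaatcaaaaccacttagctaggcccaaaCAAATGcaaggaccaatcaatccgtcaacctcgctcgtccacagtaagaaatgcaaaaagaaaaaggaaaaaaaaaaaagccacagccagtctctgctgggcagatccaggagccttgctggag
Hoxd3: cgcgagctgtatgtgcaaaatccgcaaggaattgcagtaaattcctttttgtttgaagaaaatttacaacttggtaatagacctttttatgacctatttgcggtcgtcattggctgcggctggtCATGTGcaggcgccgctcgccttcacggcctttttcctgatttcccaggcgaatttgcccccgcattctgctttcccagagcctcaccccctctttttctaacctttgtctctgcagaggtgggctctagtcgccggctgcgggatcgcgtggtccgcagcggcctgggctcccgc
Each promoter held 1 E-box, and 72.3% of all 32851 promoters of the same length held at least 1. Hoxd8 also held 1 Msx core, on the opposite strand at the far end of its window and not overlapping the E-box, and 8.00% of all promoters held at least 1. Hoxd3 and Hoxd9 held no Msx core in these windows, and none of the 3 held the homeodomain core TAATTA (5.29% of all promoters), TATAAA (13.6%) or a MEF2 site (3.19%). CpG dinucleotides numbered 20 in Hoxd9, 6 in Hoxd8 and 20 in Hoxd3, against a median of 7 over all promoters. Promoter sequences were matched for 19 of the 35 members. A motif match describes letters, not binding.

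Hoxd8, a trunk-expressed gene of the Hoxd cluster, was expressed in every myotube library and was undetected or nearly so in myoblasts. It had 5.14, 3.84 and 2.71 CPM in uninduced msx2-line myotubes, against 2 counts and 0 counts in the 2 msx2-line myoblast libraries. It had 6.53, 5.50 and 3.88 CPM in uninduced GFP-line myotubes, against 0 counts in both GFP-line myoblast libraries. No myotube library overlapped the myoblasts in either line. The level in uninduced myotubes was 86.8-fold that of myoblasts in the msx2 line (95% exact interval 23.8 to 720, from 298 and 2 counts, unfiltered edgeR adjusted p = 1.43e-06) and at least 73.3-fold that of myoblasts in the GFP line (unfiltered edgeR adjusted p = 3.72e-07), with the floor for the myoblasts set at 3 counts over the group. These intervals and floors cover counting error only.

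Hoxd3, which patterns the first cervical vertebrae, followed the same course. It had 2.30, 1.96 and 1.90 CPM in uninduced msx2-line myotubes, against 0.0446 and 0.0411 CPM, 1 count each, in msx2-line myoblasts. In the GFP line it had 3.74, 3.14 and 2.71 CPM in uninduced myotubes, against 0.0467 and 0.0456 CPM, again 1 count each, in myoblasts. Myotubes were 47.2-fold higher in the msx2 line (interval 12.9 to 393, unfiltered edgeR adjusted p = 1.26e-08) and 67.3-fold higher in the GFP line (interval 18.4 to 559, unfiltered edgeR adjusted p = 1.94e-09). Exons of Hoxd3 share 68.6% of their bases on the same strand with the annotated gene Gm28230 and 10.7% on the opposite strand with the antisense RNA Hoxd3os1, so the source of its reads was not resolved. Hoxd3os1, listed under its older symbol 1700109F18Rik, rose in uninduced myotubes too, with a log2 fold change of 1.60 in the msx2 line (adjusted p = 0.00245) and of 1.96 ± 0.40 (SE) in the GFP line (adjusted p = 0.000331). Without strand information from the counting, reads of the pair cannot be told apart. Exons of Hoxd8 and Hoxd9 share no bases with another gene in the annotation used.

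Hoxd9, which acts in the limbs and lower trunk, was the weakest of the 3. It had 0.549, 0.533 and 0.343 CPM in uninduced msx2-line myotubes and no count in msx2-line myoblasts, at least 7.18-fold higher (unfiltered edgeR adjusted p = 0.000318). It had 0.556, 0.443 and 0.383 CPM in uninduced GFP-line myotubes, against 1 count and 0 counts in GFP-line myoblasts, 19.3-fold higher (interval 3.25 to 783, unfiltered edgeR adjusted p = 0.00167). Of the members, 11 had 5 or fewer counts over the 4 myoblast libraries, namely the 8 Hoxd genes, Hoxb1, Hoxb9 and Hoxb13. So did 3448 of all 19799 genes. Of these 3448, 72 (2.09%) had at least 0.5 CPM in every uninduced myotube library, Hoxd3 and Hoxd8 among them.

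**Figure D2:**
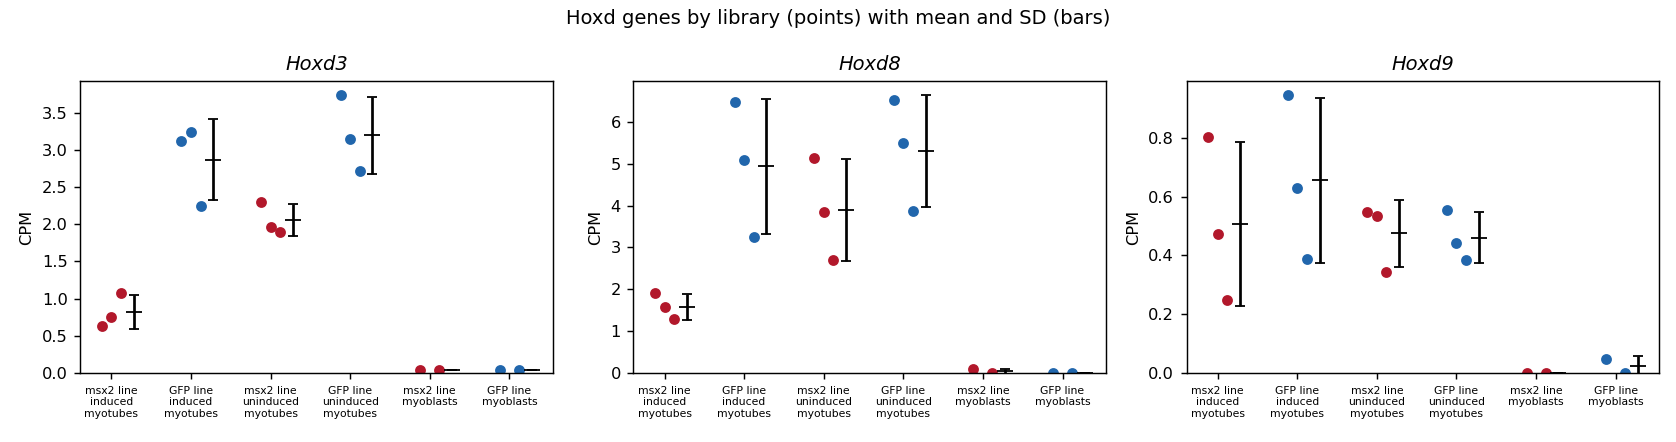
CPM of Hoxd3, Hoxd8 and Hoxd9 in each library (points, msx2 line red and GFP line blue) with the group mean and SD (black bars), for the 6 groups. Myoblasts sit at 0 or next to it, and induced msx2-line myotubes lie below the other myotube groups for Hoxd3 (0.634 to 1.07 CPM) and Hoxd8 (1.28 to 1.90 CPM) but not for Hoxd9.

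Over all Hox genes, differentiation moved members in both directions. In the msx2 line 6 of 24 tested members were higher and 11 lower in uninduced myotubes than in myoblasts (70.8% called), beside 79.8% of all 16245 tested genes (40.8% higher and 39% lower). In the GFP line 7 were higher and 8 lower (62.5% called), beside 77.7% of all genes (39.8% higher and 37.9% lower). Both shares lay below that of all genes. The median log2 fold change was -0.51 for Hox genes and 0.08 for all genes in the msx2 line, and -0.23 and 0.06 in the GFP line. Setting genes absent from myoblasts to their lower bounds cannot move these Hox medians, since those genes stay far above them. In both lines 14 members passed in the same direction (58.3%), beside 69.4% of all tested genes, which for the members is 6 of 6 msx2-line and 6 of 7 GFP-line calls upward, and 8 of 11 msx2-line and 8 of 8 GFP-line calls downward. The 6 shared risers, of which the 3 Hoxd genes passed the filter only through myotubes, were Hoxb3, Hoxc6, Hoxc13, Hoxd3, Hoxd8 and Hoxd9, and the 8 shared fallers were Hoxa2, Hoxa9, Hoxa10, Hoxa11, Hoxc8, Hoxc9, Hoxc10 and Hoxc11. Markers of cycling myoblasts (6 genes) moved with these groups, and summed to 27.4 to 38.3 CPM in uninduced msx2-line myotubes and 36.5 to 78.9 in uninduced GFP-line myotubes, against 1180 to 1194 CPM in msx2-line and 1518 to 1532 CPM in GFP-line myoblasts. So did the summed fibroblast markers given above, of which 2 of 4 tested were higher and 1 lower in myotubes of each line. Their part in these results was not tested. In bulk RNA, fewer cells of a type and less RNA per cell cannot be told apart.

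**Figure D3:**
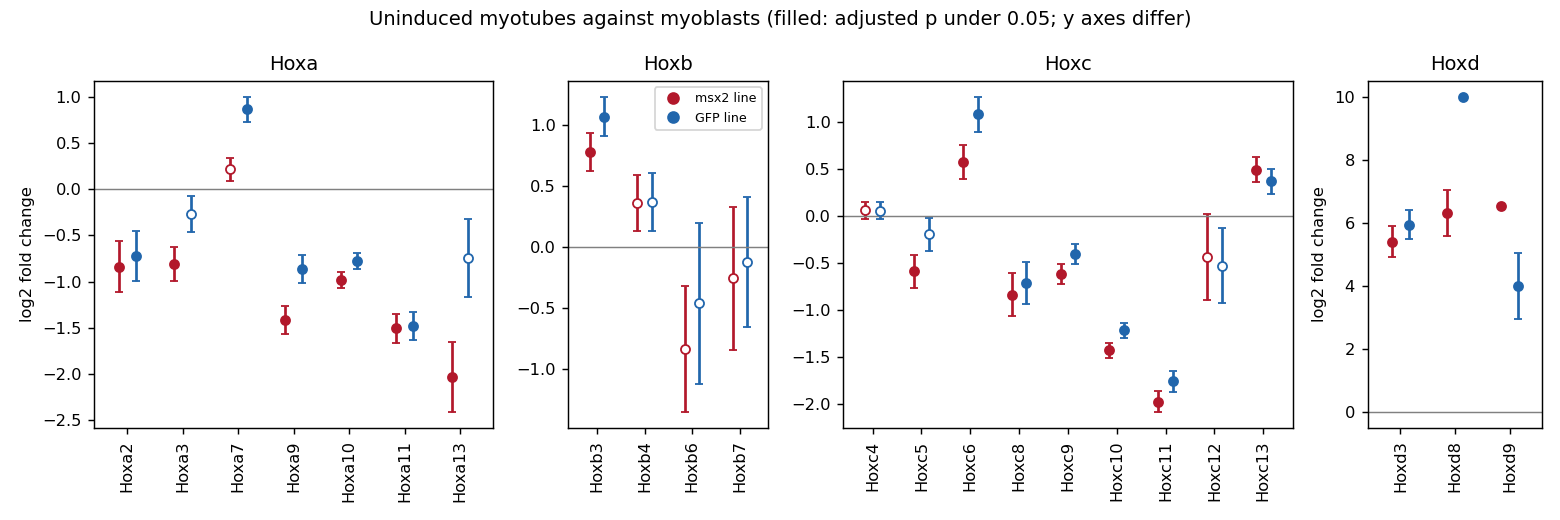
Log2 fold change of uninduced myotubes over myoblasts for 23 tested Hox genes, by cluster, in the msx2 line (red) and the GFP line (blue), with the SE as bars and filled points for adjusted p under 0.05. Hoxd points without a bar (Hoxd8 in the GFP line and Hoxd9 in the msx2 line) have a group at 0 counts and their height is not a bound. The y axes differ between panels: Hoxd genes lie far above 0, Hoxa9, Hoxa10, Hoxa11, Hoxc10 and Hoxc11 lie below it, and Hoxa7, Hoxb3, Hoxc6 and Hoxc13 lie above it.

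Most tested high-numbered genes of the Hoxa and Hoxc clusters fell. Among members numbered 9 to 13 in the Hoxa, Hoxb and Hoxc clusters, 7 of 9 tested, none of them a Hoxb gene, were lower and 1 higher in msx2-line myotubes (median log2 fold change -1.41), and 6 lower and 1 higher in GFP-line myotubes (median -0.77). Among those numbered 1 to 8, 4 of 12 were lower and 2 higher in the msx2 line (median -0.10), and 2 lower and 3 higher in the GFP line (median -0.03). With Hoxd9 included, 7 of 10 members numbered 9 to 13 were lower and 2 higher in the msx2 line, and 6 lower and 2 higher in the GFP line. The low-numbered Hoxa2 and Hoxc8 fell by more than Hoxc9 in both lines. Of all tested genes, 39% were lower and 40.8% higher in the msx2 line, and 37.9% lower and 39.8% higher in the GFP line. The split by paralog number was made after the values were seen and carries no test.

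Hoxc10 and Hoxc11, neighbours in the lumbar and hindlimb part of the code, showed the clearest fall. Hoxc10 had 27.9, 26.1 and 27.1 CPM in uninduced msx2-line myotubes, against 77.2 and 68.4 CPM in msx2-line myoblasts. It had 26.2, 23.9 and 24.7 CPM in uninduced GFP-line myotubes, against 59.0 and 56.4 CPM in GFP-line myoblasts. Myotubes lay below myoblasts without overlap, with log2 fold changes of -1.43 ± 0.08 in the msx2 line (SE, edgeR adjusted p = 1.87e-10) and -1.21 ± 0.08 in the GFP line (adjusted p = 1.54e-09). Hoxc11 had 5.89, 7.22 and 5.39 CPM in uninduced msx2-line myotubes, against 23.3 and 25.0 CPM in msx2-line myoblasts. It had 6.12, 6.53 and 6.09 CPM in uninduced GFP-line myotubes, against 21.0 and 21.2 CPM in GFP-line myoblasts. That left Hoxc11 at 25.5% of its myoblast level in the msx2 line and at 29.6% in the GFP line, with log2 fold changes of -1.97 ± 0.11 in the msx2 line (adjusted p = 2.16e-10) and -1.75 ± 0.11 in the GFP line (adjusted p = 9.77e-10).

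The Hoxa genes of the same numbers fell as well. Hoxa10, which patterns the lumbar spine and the reproductive tract, had 19.6, 19.7 and 19.1 CPM in uninduced msx2-line myotubes, against 39.8 and 37.1 CPM in msx2-line myoblasts, and 21.0, 22.6 and 19.6 CPM in uninduced GFP-line myotubes, against 38.0 and 34.0 CPM in GFP-line myoblasts. Its log2 fold changes were -0.98 ± 0.09 in the msx2 line (adjusted p = 4.01e-08) and -0.77 ± 0.09 in the GFP line (adjusted p = 7.16e-07). Hoxa11, a gene of the middle limb segment that limb muscle precursors also express, had 3.54, 2.77 and 3.83 CPM in uninduced msx2-line myotubes, against 10.7 and 8.59 CPM in msx2-line myoblasts, and 4.00, 3.43 and 4.09 CPM in uninduced GFP-line myotubes, against 10.6 and 10.9 CPM in GFP-line myoblasts. Groups did not overlap for either gene, and Hoxa11 fell in both lines, with log2 fold changes of -1.51 ± 0.16 in the msx2 line (adjusted p = 2.53e-07) and -1.48 ± 0.15 in the GFP line (adjusted p = 2.97e-07). Exons of Hoxa11 share 24.8% of their bases with its antisense RNA, listed as Hoxa11as, which also fell, with a log2 fold change of -1.41 in the msx2 line and -1.24 ± 0.21 in the GFP line (adjusted p = 5.02e-05 in the GFP line). Hoxa9, best known from blood stem cells and from aged muscle stem cells in mice, had 3.54, 3.34 and 4.08 CPM in uninduced msx2-line myotubes, against 10.1 and 9.50 CPM in msx2-line myoblasts, and 4.65, 4.61 and 4.41 CPM in uninduced GFP-line myotubes, against 8.96 and 7.62 CPM in GFP-line myoblasts. Its log2 fold changes were -1.41 ± 0.15 in the msx2 line (adjusted p = 3.25e-07) and -0.86 ± 0.15 in the GFP line (adjusted p = 7.93e-05), and the difference between them did not pass (adjusted p = 0.1285).

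Hoxc9, which patterns thoracic motor neurons and vertebrae, fell less. It had 13.8, 14.9 and 14.2 CPM in uninduced msx2-line myotubes, against 21.3 and 22.7 CPM in msx2-line myoblasts, and 12.4, 14.0 and 12.5 CPM in uninduced GFP-line myotubes, against 16.6 and 17.7 CPM in GFP-line myoblasts. The log2 fold changes were -0.62 ± 0.11 in the msx2 line (adjusted p = 5.88e-05) and -0.40 ± 0.11 in the GFP line (adjusted p = 0.00322). Of the remaining shared fallers, Hoxc8, a thoracic gene, had log2 fold changes of -0.84 ± 0.23 in the msx2 line and -0.71 ± 0.22 in the GFP line (adjusted p = 0.00352 and 0.00918). Hoxa2, a hindbrain patterning gene, had -0.84 ± 0.28 in the msx2 line and -0.73 ± 0.27 in the GFP line (adjusted p = 0.0111 and 0.0224). The GFP-line call of Hoxc8 was lost without GFP-line myoblast library 2 (adjusted p = 0.204). The GFP-line call of Hoxa2 was lost without myoblast library 1 or without uninduced myotube library 1 or 3 (adjusted p = 0.0512 to 0.173), and its msx2-line call without msx2-line myoblast library 2 (adjusted p = 0.0555). Another 3 members fell past the threshold in the msx2 line alone. Hoxa3, a neck-level gene, had log2 fold changes of -0.81 ± 0.18 in the msx2 line (adjusted p = 0.000828) and -0.27 ± 0.19 in the GFP line (adjusted p = 0.2095). Hoxa13, a gene of the hand and foot, had -2.03 ± 0.38 in the msx2 line (adjusted p = 0.000138) and -0.74 ± 0.42 in the GFP line (adjusted p = 0.114). Hoxc5 had -0.59 ± 0.17 in the msx2 line (adjusted p = 0.00585) and -0.19 ± 0.18 in the GFP line (adjusted p = 0.3265). None of the 3 differed between lines past the threshold (adjusted p = 0.227, 0.178 and 0.353).

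Against that fall, Hoxc6, Hoxc13 and Hoxb3 rose. Hoxc6 had 16.5, 20.3 and 24.1 CPM in uninduced msx2-line myotubes, against 13.6 and 13.8 CPM in msx2-line myoblasts, and 18.2, 22.4 and 26.9 CPM in uninduced GFP-line myotubes, against 11.0 and 10.3 CPM in GFP-line myoblasts. Every myotube library exceeded every myoblast library of its line, with log2 fold changes of 0.57 ± 0.18 in the msx2 line (adjusted p = 0.00876) and 1.08 ± 0.18 in the GFP line (adjusted p = 7.47e-05). Hoxc13, a gene of hair follicles and nails that lies at the far end of the Hoxc cluster, had 18.1, 17.6 and 20.3 CPM in uninduced msx2-line myotubes, against 14.1 and 12.4 CPM in msx2-line myoblasts, and 18.7, 15.8 and 22.2 CPM in uninduced GFP-line myotubes, against 15.0 and 14.3 CPM in GFP-line myoblasts. It was thus higher in myotubes (log2 fold changes 0.49 ± 0.13 in the msx2 line and 0.37 ± 0.13 in the GFP line, adjusted p = 0.00274 and 0.0172) while Hoxc10 and Hoxc11 of the same cluster were lower. The GFP-line call of Hoxc13 was lost without GFP-line myoblast library 1 or 2 or uninduced myotube library 3 (adjusted p = 0.0519 to 0.114). Hoxb3, a hindbrain and neck gene, had 5.84, 5.51 and 5.23 CPM in uninduced msx2-line myotubes, against 3.07 and 3.33 CPM in msx2-line myoblasts, and 5.67, 5.53 and 5.80 CPM in uninduced GFP-line myotubes, against 2.85 and 2.55 CPM in GFP-line myoblasts. Its log2 fold changes were 0.78 ± 0.16 in the msx2 line (adjusted p = 0.000275) and 1.07 ± 0.16 in the GFP line (adjusted p = 1.88e-05), and 63.9% of its exon bases lie opposite the antisense RNA Hoxb3os.

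Hoxa7, a thoracic gene, was the member whose differentiation differed between lines. It had 6.79, 7.11 and 6.69 CPM in uninduced msx2-line myotubes, against 6.06 and 5.80 CPM in msx2-line myoblasts, and 8.14, 8.70 and 7.12 CPM in uninduced GFP-line myotubes, against 4.43 and 4.33 CPM in GFP-line myoblasts. The libraries did not overlap in either line, but only the GFP line's rise passed (log2 fold change 0.86 ± 0.13, adjusted p = 2.64e-05), beside 0.21 ± 0.13 in the msx2 line (adjusted p = 0.143). The difference of -0.65 ± 0.19 passed at an adjusted p of 0.0428, as the 1 Hox call among 24, beside 8.28% of all genes (4.01% higher and 4.27% lower). It was lost on leaving out either library of either line's myoblasts, msx2-line uninduced library 1 or 3, or GFP-line uninduced library 1 or 2 (adjusted p = 0.0659 to 0.173). Myotube markers differed between the lines in the same comparison, with 8 of 9 called lower, and their part in the result was not tested. Hoxb4, Hoxb6, Hoxb7, Hoxc4 and Hoxc12 passed in neither line, with log2 fold changes of -0.83 to 0.37, and Hoxc4, at 0.06 ± 0.09 in both lines, moved least.

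**Figure D4:**
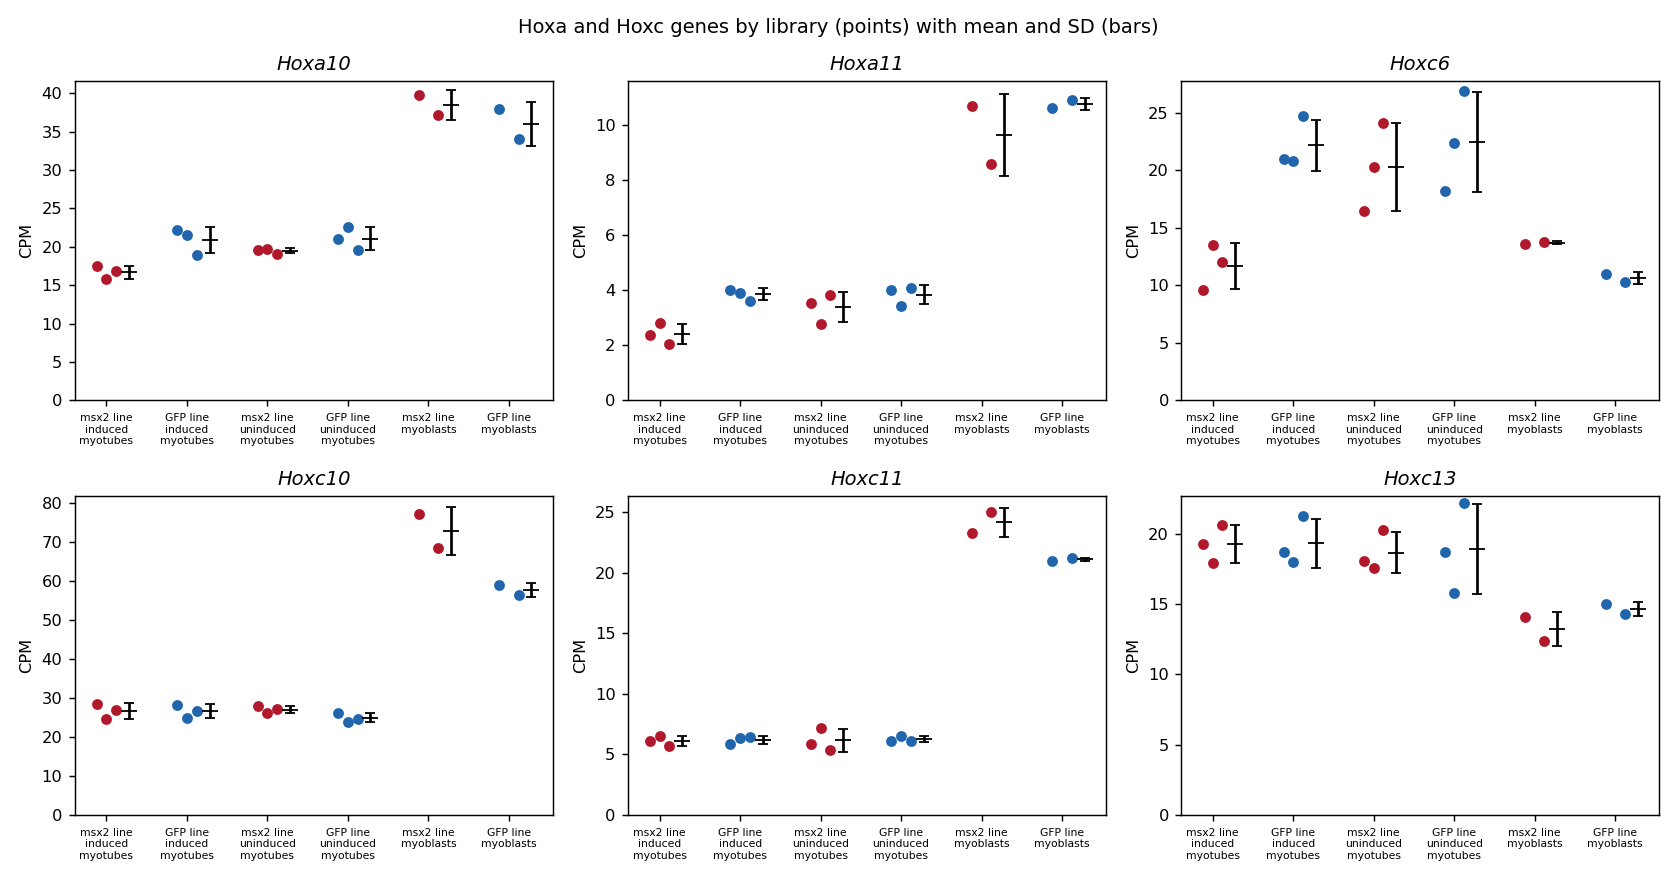
CPM of Hoxa10, Hoxa11, Hoxc6, Hoxc10, Hoxc11 and Hoxc13 in each library (points, msx2 line red and GFP line blue), with the group mean and SD (black bars). Hoxa10, Hoxa11, Hoxc10 and Hoxc11 are highest in myoblasts, whereas Hoxc6 and Hoxc13 are higher in uninduced myotubes than in myoblasts. Hoxc6 in induced msx2-line myotubes (9.59 to 13.5 CPM) lies below the other 9 myotube libraries and below both msx2-line myoblast libraries.

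Some Hox genes were lower after induction of msx2 in myotubes and none was higher, while induction of GFP moved none past the threshold. In the msx2 line 8 of 24 tested members were lower in induced than in uninduced myotubes and none higher (33.3% called), beside 32.5% of all genes called in either direction, 16.2% higher and 16.3% lower. The median log2 fold change was -0.09 for Hox genes and -0.01 for all genes. In the GFP line edgeR called 0 Hox genes and 0.0308% of all genes, and 0 Hox genes lay under an unadjusted p of 0.05 or were called by DESeq2. The 8 lower genes were Hoxd3, Hoxd8, Hoxc6, Hoxc4, Hoxa11, Hoxa10, Hoxa9 and Hoxb4. Markers of myotubes moved with them, with 4 of 9 called lower and the summed level given above, and their part in these results was not tested.

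Hoxd3 and Hoxd8 fell furthest. Hoxd3 had 0.634, 0.748 and 1.07 CPM in induced msx2-line myotubes, against 2.30, 1.96 and 1.90 CPM in uninduced ones, and 3.12, 3.24 and 2.24 CPM in induced GFP-line myotubes, against 3.74, 3.14 and 2.71 CPM in uninduced ones. The msx2-line groups did not overlap and the GFP-line groups did. The log2 fold change was -1.30 ± 0.22 in the msx2 line (edgeR adjusted p = 0.000299) and -0.14 ± 0.18 in the GFP line (adjusted p = 1), and the difference between lines was -1.16 ± 0.29 (adjusted p = 0.0105). Hoxd8 had 1.90, 1.58 and 1.28 CPM in induced msx2-line myotubes, against 5.14, 3.84 and 2.71 CPM in uninduced ones, and 6.47, 5.09 and 3.26 CPM in induced GFP-line myotubes, against 6.53, 5.50 and 3.88 CPM in uninduced ones. Induced msx2-line libraries were all below uninduced ones, and GFP-line groups overlapped. In all 4 myotube groups the library numbered 1 was the highest and that numbered 3 the lowest for Hoxd8, and compared by number, induced msx2-line myotubes stood at 0.370, 0.410 and 0.473 times uninduced ones, against 0.992, 0.925 and 0.839 times in the GFP line. The log2 fold change was -1.28 ± 0.32 in the msx2 line (adjusted p = 0.00719) and -0.08 ± 0.28 in the GFP line. The difference of -1.20 ± 0.43 missed the threshold (adjusted p = 0.0726), and passed with the replicate number as a block (-1.16, adjusted p = 0.000926), without msx2-line uninduced library 3 or GFP-line induced library 3 (adjusted p = 0.0381 and 0.0292) and with DESeq2 (0.0393), where adjusted p over all alternatives spanned 0.000926 to 0.167. Without the myotube libraries numbered 2 of the msx2 line the induction values were -1.25 for Hoxd3 and -1.27 for Hoxd8 (adjusted p = 0.00358 and 0.0448).

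Hoxd9 had no call with msx2 induction, and its difference between lines was -0.45 ± 0.60 (SE, edgeR adjusted p = 0.692). It had 0.803, 0.473 and 0.249 CPM in induced msx2-line myotubes, against 0.549, 0.533 and 0.343 CPM in uninduced ones, and 0.945, 0.630 and 0.389 CPM in induced GFP-line myotubes, against 0.556, 0.443 and 0.383 CPM in uninduced ones. With 7 to 20 counts per myotube library, it had log2 fold changes of 0.10 ± 0.43 in the msx2 line and 0.54 ± 0.42 in the GFP line, and changes of a size near these errors were not detectable at this depth. Induced msx2-line myotubes still held 64 counts of Hoxd3 and 121 of Hoxd8 over 3 libraries, against 2 counts of each over the 2 msx2-line myoblast libraries.

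Hoxc6 also fell. It had 9.59, 13.5 and 12.0 CPM in induced msx2-line myotubes, against 16.5, 20.3 and 24.1 CPM in uninduced ones, and 21.0, 20.8 and 24.7 CPM in induced GFP-line myotubes, against 18.2, 22.4 and 26.9 CPM in uninduced ones. The 3 induced msx2-line libraries were the lowest of all 12 myotube libraries and overlapped the range of the myoblasts (10.3 to 13.8 CPM). The log2 fold change was -0.80 ± 0.16 in the msx2 line (adjusted p = 0.00117) and -0.03 ± 0.15 in the GFP line, a difference of -0.77 ± 0.22 (adjusted p = 0.0248). Along with Hoxd3 it gave the 2 Hox calls in this difference, 8.33% of those tested, beside 17.9% of all genes (9.15% higher and 8.78% lower). The call of the difference for Hoxc6 was lost without msx2-line induced library 1, msx2-line uninduced library 3, GFP-line induced library 3 or GFP-line uninduced library 1 or 2 (adjusted p = 0.0504 to 0.0700), and in a fit of the compared groups alone (adjusted p = 0.0524). Its fall in the msx2 line passed in all 13 alternatives run (adjusted p = 1.28e-05 to 0.00988), as did those of Hoxd3 (6.56e-05 to 0.0038) and Hoxd8 (1.54e-05 to 0.0448).

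The other 5 falls were smaller and each hung on single libraries. Hoxc4, a neck-level gene, had 11.3, 12.4 and 12.6 CPM in induced msx2-line myotubes, against 14.2, 14.5 and 14.6 CPM in uninduced ones (log2 fold change -0.26 ± 0.08, adjusted p = 0.0247). Hoxa11 had 2.37, 2.80 and 2.06 CPM in induced ones, against 3.54, 2.77 and 3.83 CPM in uninduced ones, which overlap (-0.49 ± 0.16, adjusted p = 0.0258). Hoxa10 had 17.5, 15.8 and 16.8 CPM in induced ones, against 19.6, 19.7 and 19.1 CPM in uninduced ones (-0.22 ± 0.08, adjusted p = 0.0444). These 3 genes were thus between 71.2% and 85.6% of their uninduced level. Hoxa9 had 2.07, 2.95 and 3.20 CPM in induced msx2-line myotubes, against 3.54, 3.34 and 4.08 CPM in uninduced ones (-0.41 ± 0.15, adjusted p = 0.0470). Hoxb4, known from blood stem cells, had 1.86, 2.17 and 2.46 CPM in induced ones, against 2.65, 3.38 and 3.46 CPM in uninduced ones (-0.55 ± 0.20, adjusted p = 0.0491). In the GFP line the log2 fold changes of these 5 genes had adjusted p = 1, and none of the 5 differed between lines past the threshold (adjusted p = 0.146 to 0.310), except that Hoxa11 did so without the msx2-line libraries numbered 2 (-0.74, adjusted p = 0.0249).

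Leaving out 1 msx2-line myotube library left 3 to 5 of the 8 calls. Hoxa10 lost its call without any one of the 6 libraries (adjusted p = 0.0514 to 0.143). Hoxb4 lost it without any of the 3 induced ones or uninduced 2 or 3 (0.0521 to 0.162). Hoxa9 lost it without induced 1 or 2 or uninduced 1 or 3 (0.0549 to 0.208), Hoxa11 without induced 1 or 3 or uninduced 1 or 3 (0.0660 to 0.128), and Hoxc4 without induced 1 or uninduced 2 or 3 (0.0509 to 0.112). Without the pair of libraries numbered 2, 5 calls were left, with Hoxa10, Hoxb4 and Hoxc4 no longer past the threshold (adjusted p = 0.214, 0.167 and 0.0705). DESeq2 called 6 of the 8, without Hoxa9 and Hoxb4 (adjusted p = 0.0529 and 0.0521). Without a low-count filter Hoxa9, Hoxa10 and Hoxb4 missed the threshold (adjusted p = 0.0552 to 0.0611), and in a fit of the compared groups alone all 5 smaller falls did (adjusted p = 0.0563 to 0.167).

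Hoxc10 and Hoxc11, lower in myotubes than in myoblasts, had log2 fold changes near 0 with msx2 induction, a comparison that shares the uninduced myotube libraries with differentiation. Hoxc10 had 24.5 to 28.4 CPM in induced msx2-line myotubes, against 26.1 to 27.9 CPM in uninduced ones, a log2 fold change of -0.02 ± 0.07. Hoxc11 had 6.09, 6.50 and 5.69 CPM in induced ones, against 5.89, 7.22 and 5.39 CPM in uninduced ones (-0.02 ± 0.11). Both stayed below their levels in myoblasts. Hoxc13 had a log2 fold change of 0.04 ± 0.11 and Hoxc9 of -0.08 ± 0.10. The other members without a call had log2 fold changes of -0.41 (Hoxb6) to 0.48 (Hoxa13), with Hoxa2, Hoxa3, Hoxa7, Hoxc5 and Hoxc8 between -0.18 (Hoxc5) and 0.08, Hoxb3 at -0.31, Hoxb7 at 0.44 and Hoxc12 at 0.17.

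**Figure D5:**
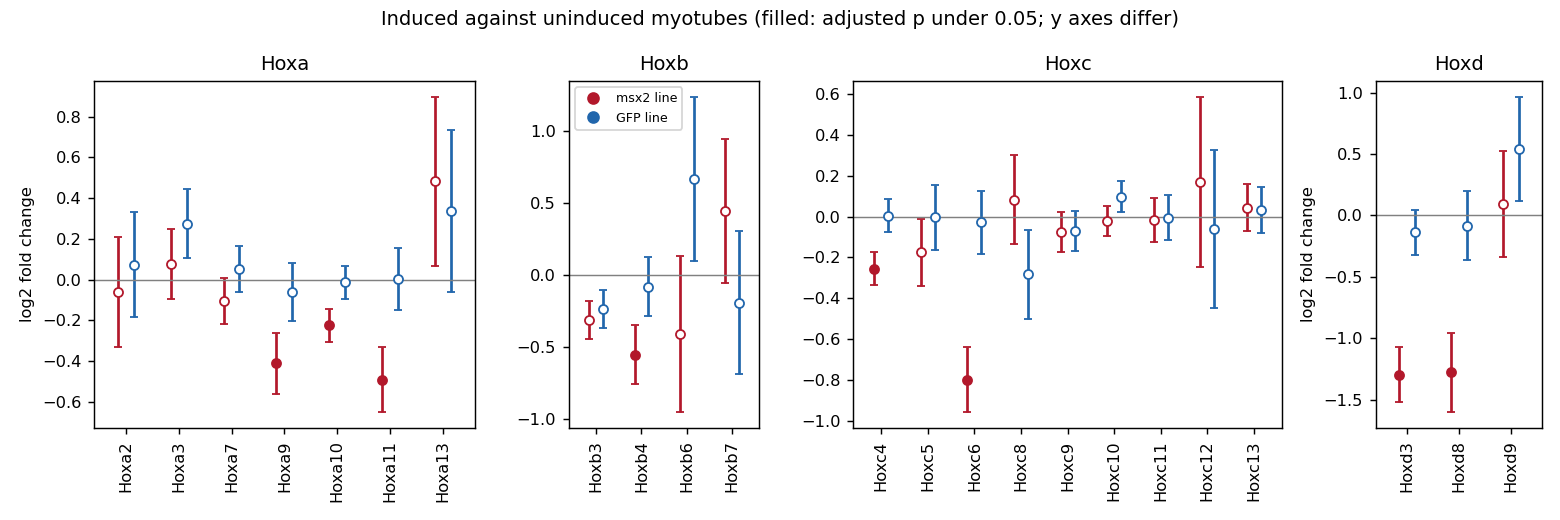
Log2 fold change of induced over uninduced myotubes for 23 tested Hox genes, by cluster, in the msx2 line (red) and the GFP line (blue), with the SE as bars and filled points for adjusted p under 0.05. All filled points are msx2-line values below 0, lowest for Hoxd3 (-1.30) and Hoxd8 (-1.28), and y axes differ between panels.

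Set against the induced GFP line, which shares the induced msx2-line libraries with the comparison above, 8 members were lower in induced msx2-line myotubes and none higher (33.3% called), beside 35.3% of all genes (17.6% higher and 17.8% lower). They were Hoxd3 (log2 fold change -1.79 ± 0.22, adjusted p = 9.84e-06), Hoxc6 (-0.92 ± 0.16, 0.000349), Hoxd8 (-1.65 ± 0.32, 0.00106), Hoxa9 (-0.66 ± 0.15, 0.0027), Hoxa11 (-0.68 ± 0.16, 0.00354), Hoxa10 (-0.32 ± 0.08, 0.00558), Hoxc4 (-0.32 ± 0.08, 0.00616) and Hoxa7 (-0.37 ± 0.11, 0.0181). Hoxa9 had 2.07, 2.95 and 3.20 CPM in induced msx2-line myotubes, against 4.39, 4.54 and 4.13 CPM in induced GFP-line myotubes, and Hoxa11 had 2.37, 2.80 and 2.06 CPM, against 4.02, 3.91 and 3.60 CPM. The libraries of Hoxa7, Hoxa9 and Hoxd3 did not overlap between the lines before induction either, and all 3 genes were lower in the uninduced msx2 line, at 85.9%, 80.2% and 64.2% of the mean in the uninduced GFP line. Of 9 myotube markers 5 were called lower in induced msx2-line than in induced GFP-line myotubes, and their part was not tested. The call of Hoxa7 was lost without msx2-line library 1 or 3 or GFP-line library 2 (adjusted p = 0.0737 to 0.101). Hoxc5 missed the threshold (-0.39 ± 0.17, adjusted p = 0.0821) and passed without GFP-line library 2 (adjusted p = 0.0258). Before induction the lines did not differ in any Hox gene past the threshold, with edgeR calling 0 of 24 (0.0616% of all genes, 0.00616% higher and 0.0554% lower), 2 under an unadjusted p of 0.05, and DESeq2 0. Hoxd3 came closest to a difference, at -0.63 ± 0.19 (adjusted p = 0.232), lower in the uninduced msx2 line.

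Between the myoblasts of the lines 2 members were called (8.33%, beside 16.3% of all genes, 9.09% higher and 7.24% lower), both Hoxc genes and higher in the msx2 line. Hoxc10 had 77.2 and 68.4 CPM in msx2-line myoblasts, against 59.0 and 56.4 CPM in GFP-line myoblasts (log2 fold change 0.33 ± 0.09, adjusted p = 0.0169). Hoxc9 had 21.3 and 22.7 CPM in msx2-line myoblasts, against 16.6 and 17.7 CPM in GFP-line myoblasts (0.36 ± 0.12, adjusted p = 0.0459). Libraries did not overlap for either gene. Of 9 myotube markers 8 were called higher in msx2-line than in GFP-line myoblasts, and their part in the result was not tested. The call of Hoxc9 was lost without any one of the 4 libraries (adjusted p = 0.136 to 0.221), and that of Hoxc10 without msx2-line library 1 or either GFP-line library (adjusted p = 0.0647 to 0.236).

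Partners of Hox proteins moved in both directions, as a list of 9 TALE cofactors that bind DNA beside them. With msx2 induction 4 were higher and 3 lower, with differentiation 1 was higher and 6 lower in the msx2 line and 1 higher and 4 lower in the GFP line, and GFP induction moved none. Of all genes, 32.5% were called with msx2 induction, and 79.8% and 77.7% with differentiation in the msx2 line and the GFP line. Pbx3 averaged 21.7 ± 1.78 CPM in induced msx2-line myotubes and 37.7 ± 3.00 CPM in uninduced ones (log2 fold change -0.80 ± 0.09, adjusted p = 8.55e-06), and Meis3 averaged 10.3 ± 0.587 CPM in induced and 5.85 ± 0.348 CPM in uninduced ones (0.81 ± 0.14, adjusted p = 0.000415). With differentiation in the GFP line Meis1 and Meis2 fell by 0.99 ± 0.13 and 0.83 ± 0.14 on the log2 scale (adjusted p = 3.86e-06 and 5.18e-05).

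Products of Polycomb genes silence Hox clusters. Of 29 tested, 19 were lower and 6 higher in msx2-line uninduced myotubes than in myoblasts, beside 39% of all genes lower and 40.8% higher. In the GFP line 18 were lower and 7 higher, beside 37.9% lower and 39.8% higher. Median log2 fold changes of the list were -0.46 in the msx2 line and -0.50 in the GFP line, beside 0.08 and 0.06 for all genes. Ezh2, a histone methyltransferase of the complex, averaged 25.3 ± 1.64 CPM in uninduced GFP-line myotubes and 109 ± 0.44 CPM in GFP-line myoblasts (log2 fold change -2.10 ± 0.09, adjusted p = 6.79e-12), and its partner Suz12 fell by 1.17 ± 0.07 (adjusted p = 3.34e-10). Ezh1, the alternative methyltransferase, named after its values were seen, went the other way, with 38.9 ± 1.24 CPM in uninduced msx2-line myotubes and 17.0 ± 1.18 CPM in msx2-line myoblasts (log2 fold change 1.20 ± 0.10, adjusted p = 1.2e-08). It had 38.1 ± 2.23 CPM in uninduced GFP-line myotubes and 13.0 ± 1.62 CPM in GFP-line myoblasts (1.55 ± 0.10, adjusted p = 9.98e-10). With msx2 induction 4 Polycomb genes were higher and 1 lower, beside 16.2% of all genes higher and 16.3% lower. Phf19, an accessory subunit, averaged 8.08 ± 1.59 CPM in induced msx2-line myotubes and 1.27 ± 0.280 CPM in uninduced ones (2.69 ± 0.20, adjusted p = 9.27e-08), while Ezh2 had a log2 fold change of -0.15 (adjusted p = 0.184). Of 12 tested trithorax and H3K27 demethylase genes, 5 were higher and 1 lower with msx2 induction, 2 higher and 8 lower with differentiation in the msx2 line, and 1 higher and 6 lower in the GFP line. The shares of all genes called in these comparisons were 32.5%, 79.8% and 77.7%, in the same order. Kdm6b, which removes the Polycomb mark, averaged 100 ± 9.89 CPM in induced msx2-line myotubes and 57.5 ± 1.31 CPM in uninduced ones (0.80 ± 0.07, adjusted p = 6.37e-07), and Men1, a subunit of the complexes that keep Hox genes on, had a log2 fold change of -2.05 ± 0.08 in GFP-line differentiation (adjusted p = 3.46e-12).

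Genes that flank the clusters also moved in both directions. Of 20 tested neighbours, 9 were higher and 4 lower with differentiation in the msx2 line and 10 higher and 4 lower in the GFP line, and with msx2 induction 2 were higher and 1 lower. The share of all genes called was larger in each case. It was 79.8% and 77.7% with differentiation in the msx2 line and the GFP line, and 32.5% with msx2 induction. Mtx2, beside the Hoxd cluster, averaged 40.3 ± 1.56 CPM in uninduced msx2-line myotubes and 44.2 ± 3.66 CPM in msx2-line myoblasts (log2 fold change -0.13, adjusted p = 0.0847), while Hoxd3, Hoxd8 and Hoxd9 were higher in those myotubes. With msx2 induction Mtx2 averaged 47.6 ± 1.20 CPM in induced and 40.3 ± 1.56 CPM in uninduced myotubes (0.24 ± 0.06, adjusted p = 0.006), while Hoxd3 and Hoxd8 were lower. Lnp, on the opposite flank of the Hoxd cluster and named after its values were seen, was higher after differentiation. It averaged 48.5 ± 10.5 CPM in uninduced msx2-line myotubes and 26.0 ± 0.154 CPM in msx2-line myoblasts (0.90 ± 0.16, adjusted p = 0.000152), and 49.7 ± 4.27 CPM in uninduced GFP-line myotubes and 38.2 ± 5.06 CPM in GFP-line myoblasts (0.38 ± 0.16, adjusted p = 0.0414). Evx2, between Lnp and the Hoxd genes and named after its values were seen, had at most 2 counts in any library. Of the RNAs transcribed within the clusters, 5 of 16 listed were in the table and 2 could be tested, Hoxa11as and Hoxd3os1.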

How the data were processed

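RNA-seq was made from 16 libraries in 6 groups with a stranded mRNA kit, per the labels' protocols. The authors deposited 19866 entries as raw counts per gene. Build mm9, edgeR 3.6.8, TopHat2 2.0.11 and SAMtools 0.1.19 appear in the submitters' processing notes. How strand was set, which annotation was used and what counted the reads is not given in the sources used here. After removal of 67 entries with no symbol (0.0601 to 0.0878% of counts), there were 19799 genes and 19772048 to 33070931 counts per library.

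All 6 groups entered 1 model in edgeR 4.0.16 under R 4.3.3, with limma 3.58.1 loaded, with filterByExpr at a minimum count of 10 (16245 genes), TMM scaling and two-sided robust quasi-likelihood F-tests. Each of 9 comparisons had its own Benjamini-Hochberg adjustment across the genes tested, with 0.05 as the threshold. Fold changes are edgeR's log2 values, and the SE is the size of the unshrunken log2 value over the root of the F statistic. Scripts were tested on simulated data. Ratios against groups with 3 or fewer counts have exact conditional binomial 95% intervals, and groups at 0 were set to 3 counts over the group. Exon lengths and overlaps came from GENCODE M21, whose build GRCm38 is not mm9, so they are approximate for these counts, and names, chromosomes and promoters came from RefSeq GRCm38.p6.

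Members, gene lists, tests and alternatives were chosen with earlier results of these data known. Values in every library were given for Hox genes past the threshold in msx2 induction, its difference from GFP induction, or differentiation, with at least 2 CPM in the higher group (up to 8 per comparison by adjusted p), for the highest gene of each cluster per kilobase, and for calls between lines (up to 5 per comparison). Hoxd9 and Hoxc13 were added to these after their values were seen. Of other lists up to 3 genes with the smallest adjusted p in msx2 induction or GFP-line differentiation could be named. Some genes counted in the totals are not reported here by name.

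Same-numbered myotube libraries deviated together (correlations of deviations 0.207 to 0.508 in msx2 induction, 0.359 to 0.453 in GFP induction and 0.177 to 0.288 between uninduced lines), and the pairing comes from these data, not from the labels. Between induced lines the correlations were 0.0912, 0.247 and 0.175 for the libraries numbered 1, 2 and 3. In differentiation and between the lines' myoblasts they were -0.01 to 0.04. Alternatives were RLE scaling, no low-count filter, at least 1 CPM in 3 libraries, DESeq2 1.42.0, the replicate block, a fit of the compared groups alone, omission of each library, and leaving out both msx2-line myotube libraries numbered 2.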

Additional observations from a re-analysis of the deposited data

Results flagged for a closer look

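Effects of the same contrast differed between the lines for 3 Hox genes in tests of the difference itself. Induction of Hoxd3 in the msx2 line minus that in the GFP line was -1.16 ± 0.29 on the log2 scale (SE, edgeR adjusted p = 0.0105), with induced msx2-line libraries lower than uninduced ones at 3 of 3 numbers and induced GFP-line libraries at 2 of 3. For Hoxc6 the same difference was -0.77 ± 0.22 (adjusted p = 0.0248), lower at 3 of 3 numbers in the msx2 line and at 2 of 3 in the GFP line. For Hoxa7 the difference of differentiation between the lines, msx2 line minus GFP line, was -0.65 ± 0.19 (adjusted p = 0.0428), and all uninduced myotube libraries lay above the myoblasts of their own line.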

How the results depend on the processing

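No Hox result compared across alternatives changed sign. Counts of called Hox genes stayed within 1.5 times the value reported for GFP induction (0 throughout), differentiation in the msx2 line and in the GFP line, and the lines compared as induced or as uninduced myotubes. For msx2 induction (8 calls) the count was 5 without a low-count filter, 3 with only the compared groups, 5 without both msx2-line libraries numbered 2, and 3 to 5 on leaving out 1 library. For the induction difference (2 calls) it was 1 with only the compared groups and 1 to 2 on leaving out 1 library. For the differentiation difference (1 call) it was 0 without a filter, 0 with only the compared groups and 0 to 1 on leaving out 1 library. For the lines as myoblasts (2 calls) it was 1 without a filter, 1 with at least 1 CPM in 3 libraries, 4 with the replicate block, 4 with only the compared groups and 0 to 1 on leaving out 1 library. The cause of these moves was not tested, beyond fewer libraries where some were left out. The counts on leaving out 1 library were 16 to 17 for msx2-line and 13 to 15 for GFP-line differentiation, 7 to 8 for induced lines, and 0 for uninduced lines. Of single-gene values recomputed, 656 kept their side of the threshold, 72 lost it and 10 gained it. The replicate block changed 1 call where numbers paired the libraries, that of Hoxd8 in the induction difference, and left 8 calls in msx2 induction and 0 in GFP induction. In differentiation, where the numbers did not pair the libraries, it left 17 and 15 calls, and 1 in the difference. Between induced lines, where correlations were above 0.1 for some numbers only, it left 8. RLE scaling moved the median of all genes by at most 0.0226 on the log2 scale in size. Myoblast groups of 2 libraries and counts near 0 limit Hoxd ratios, whose intervals span more than 10-fold.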

Other observations

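Retinoic acid, a classic inducer of Hox genes, has its own receptors, synthesis and clearance enzymes, and 18 such genes were tested. With msx2 induction 6 were higher and 4 lower, and with differentiation 6 were higher and 10 lower in each line, beside 32.5%, 79.8% and 77.7% of all genes called in either direction. The retinoic acid-degrading enzyme Cyp26b1 averaged 29.0 ± 4.65 CPM in induced msx2-line myotubes and 9.44 ± 1.49 CPM in uninduced ones (log2 fold change 1.61 ± 0.14, SE, edgeR adjusted p = 3.86e-07), and 11.3 ± 0.845 CPM in uninduced GFP-line myotubes and 1.20 ± 0.0192 CPM in GFP-line myoblasts (3.23 ± 0.22, adjusted p = 2.42e-09). The receptor genes Rxra and Rara rose with msx2 induction by 1.11 ± 0.08 and 0.68 ± 0.07 (adjusted p = 7.03e-08 and 3.06e-06), and Rarg had -2.09 ± 0.13 in GFP-line differentiation (adjusted p = 1.23e-09).

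Of 23 tested homeobox and limb patterning genes outside the Hox clusters, 4 were higher and 6 lower with msx2 induction, against 0 higher and 8 lower of 24 Hox genes. With differentiation 6 were higher and 14 lower in the msx2 line and 7 higher and 13 lower in the GFP line. The share of all genes called was 32.5% with msx2 induction, and 79.8% and 77.7% with differentiation in the msx2 line and the GFP line. Emx2 had log2 fold changes of -1.81 ± 0.26 with msx2 induction (adjusted p = 5.46e-05) and 2.42 in GFP-line differentiation. Dlx1 and Dlx2, homeobox relatives of Msx2, had -4.89 ± 0.39 and -3.46 ± 0.19 in GFP-line differentiation (adjusted p = 1.04e-08 and 1.48e-10).

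Markers of other cell types were summed over 4 genes each. Neural markers, which include the tubulin Tubb3, summed to 49.2 to 73 CPM over the myotube libraries of both lines, against 161 to 219 CPM over the myoblast libraries. The single genes did not all follow this sum. With differentiation, 2 of 3 tested neural markers were higher and 1 lower in the msx2 line. In the GFP line 1 was higher and 1 lower. Endothelial markers summed to 29.2 to 35.4 CPM in myotube libraries and 13.9 to 15.6 CPM in myoblast libraries, leukocyte markers to 22.4 to 27.1 CPM and 19.9 to 29.4 CPM, and adipocyte markers to 3.58 to 4.94 CPM and 4.41 to 7.34 CPM. Of 4 leukocyte markers, 2 were higher and 0 lower with differentiation in the msx2 line, and 2 higher and 1 lower in the GFP line. In each line 2 of 4 endothelial markers were higher and 0 lower, and 1 of 3 tested adipocyte markers was higher and 1 lower. Of all genes, 79.8% and 77.7% were called with differentiation in the msx2 line and the GFP line.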
